A study of Mus musculus with 18 samples.

Results

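Mouse chromosome 16 carries the segment syntenic to human chromosome 21, and beside it a longer stretch whose human counterparts lie elsewhere. The genes described here are 38 listed genes of that longer stretch, chosen for roles in signalling, transcription and cell structure because their human orthologues lie off chromosome 21. They are listed by role and chromosome position, and the list was made with earlier results of these data known. Each gene was represented by its probe set with the highest mean over 18 arrays, and 35 of the 38 had a probe set assigned to that gene alone, out of 12394 genes in all. Eif4g1, Igf2bp2 and Polq had none and were not analysed here. Dvl3, a Wnt signalling adaptor, lay between 1.89 and 1.99 on every array, below the filter on low values, which asked for an 18-array mean of 4 or more on the log2 scale and left 34 genes tested among 7382.

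Messenger RNA was measured in mouse embryo fibroblasts (MEFs), connective tissue cells grown from embryos, with 1 Affymetrix array per line. The groups were 3 lines with 3 copies of chromosome 16 (trisomy 16), 4 lines with 3 copies of chromosome 13 (trisomy 13), 1 line with 3 copies of chromosome 1 (trisomy 1), 1 line with 3 copies of chromosome 19 (trisomy 19), and 9 control lines with a normal chromosome complement. The lines of trisomies 13, 1 and 19 carry 2 copies of chromosome 16, as the controls do. All lines were cultured for 2 passages before Trizol extraction, and no treatment separates them. The labels give neither strain nor embryo age, nor whether the lines of a group stem from separate embryos. The p-values below therefore measure the spread between these cultures. With 1 array each, trisomies 1 and 19 stand for single lines.

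All 13 fibroblast markers passed the filter, and their mean log2 level was 13.18 to 14.01 in trisomy 16 and 12.68 to 13.96 in controls. The mean of 16 macrophage markers was 2.78 to 2.90 in trisomy 16, 2.75 to 5.00 in trisomy 13 and 2.57 to 4.61 in controls, and that of 9 endothelial markers was 2.92 to 3.22 in trisomy 16 and 2.74 to 3.15 in controls. On 3 arrays, trisomy 16 replicate 1 and trisomy 13 replicates 3 and 4, the 3' control probe set of Gapdh exceeded the 5' one by 5.57 to 6.94 on the log2 scale, against -0.20 to 1.41 on the other 15 arrays. These 3 are called 3'-biased, and all 9 controls are unbiased. The titles also hold a first number: 89 or 92 for the trisomy 16 lines and for control replicates 1 to 3, and other numbers for the remaining lines. What that number stands for is not stated in the labels. Trisomy 16 and control lines of the same replicate number deviated from their groups together, with correlations of 0.67, 0.51 and 0.83 across genes off the trisomic chromosomes, so each trisomy 16 line was also set against its own paired control.

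Several of these genes encode parts of machines whose other subunits lie on other chromosomes. Gsk3b and Crebbp encode a kinase that restrains Wnt signalling and a histone acetyltransferase shared by many transcription factors, Rfc4 a subunit of the clamp loader of DNA replication, and Ap2m1 a subunit of the clathrin adaptor AP2. Hes1, Snai2 and Etv5 are transcription factors of the Notch, mesenchymal and fibroblast growth factor programmes. Crkl, Ranbp1 and Hira have orthologues in the region of human chromosome 22 that is deleted in DiGeorge syndrome.

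Start-site windows of 4 genes are shown because they contrast in change and in letters. Mylk had the highest estimate in trisomy 16 and Eif4a2 a small one with separated groups, while Ranbp1 and Hira each share their window with a neighbour on the other strand. The windows are RefSeq sequence of GRCm38.p6, 300 bases long around the annotated start, written 5' to 3' on the gene's strand. Capitals mark the GC box letters GGGCGG and the CCAAT letters on either strand, so that CCGCCC and ATTGG are the reverse complements, and no marked matches overlap. The window of Ranbp1 is at chr16:18248645-18248944 on the minus strand, that of Hira at chr16:18876500-18876799 on the plus strand, that of Mylk at chr16:34784700-34784999 on the plus strand and that of Eif4a2 at chr16:23107218-23107517 on the plus strand.
Ranbp1: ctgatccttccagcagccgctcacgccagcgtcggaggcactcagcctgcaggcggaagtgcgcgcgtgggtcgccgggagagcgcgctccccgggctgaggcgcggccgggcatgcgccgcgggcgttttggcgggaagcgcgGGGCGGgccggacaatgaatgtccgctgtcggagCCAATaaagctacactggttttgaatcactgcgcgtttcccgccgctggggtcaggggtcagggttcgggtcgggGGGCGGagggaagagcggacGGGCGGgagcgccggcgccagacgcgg
Hira: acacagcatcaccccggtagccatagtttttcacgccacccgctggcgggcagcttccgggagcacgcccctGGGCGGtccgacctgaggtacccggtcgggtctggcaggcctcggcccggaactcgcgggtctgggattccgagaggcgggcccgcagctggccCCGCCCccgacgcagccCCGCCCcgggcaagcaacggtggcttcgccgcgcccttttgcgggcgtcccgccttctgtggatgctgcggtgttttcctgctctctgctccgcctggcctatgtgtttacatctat
Mylk: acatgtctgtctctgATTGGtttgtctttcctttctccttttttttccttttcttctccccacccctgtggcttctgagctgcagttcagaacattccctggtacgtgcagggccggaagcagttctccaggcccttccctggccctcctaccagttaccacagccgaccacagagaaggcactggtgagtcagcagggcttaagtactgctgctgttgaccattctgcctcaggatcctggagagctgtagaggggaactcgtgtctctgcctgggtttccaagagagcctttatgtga
Eif4a2: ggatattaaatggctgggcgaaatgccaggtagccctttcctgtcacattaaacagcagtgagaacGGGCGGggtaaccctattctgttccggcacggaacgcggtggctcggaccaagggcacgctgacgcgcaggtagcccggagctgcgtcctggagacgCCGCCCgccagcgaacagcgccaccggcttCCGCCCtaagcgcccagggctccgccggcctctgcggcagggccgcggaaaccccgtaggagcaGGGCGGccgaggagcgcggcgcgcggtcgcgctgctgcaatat

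The window of Ranbp1 holds 3 GC boxes and 1 CCAAT match at 72.0% G and C, and that of Hira 3 GC boxes at 69.0%. Eif4a2 has 4 GC boxes at 67.7%. The Mylk window has no GC box and 1 CCAAT match at 53.3%. None of the 4 holds the letters TATAAA. RefSeq start windows were matched for 30 of the 38 genes, 38 windows in all, of which 24 held a GC box, 11 a CCAAT match and 2 TATAAA. Of all 32851 windows of this length 35.7% held a GC box, 37.4% a CCAAT match and 13.6% TATAAA. These are matches of letters and not shown binding sites.

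The main question was how far an extra copy of chromosome 16 raises these messages. In trisomy 16 the estimates lay above the control mean for 32 of 34 genes, with a median log2 difference of 0.57, or 1.49-fold, against -0.05 over all 7382 tested genes. A ratio of 3 copies to 2 is 0.58 on this scale. The other 157 tested chromosome 16 genes ahead of the segment had a median of 0.64, and the 52 genes of the segment itself had 0.51. Over all tested genes 44.2% were above the control mean and over chromosome 16 88.5%, so the share among the listed genes is close to that of their chromosome. In bulk cultures, fewer cells of a type and less RNA per cell cannot be told apart.

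**Figure D1:**
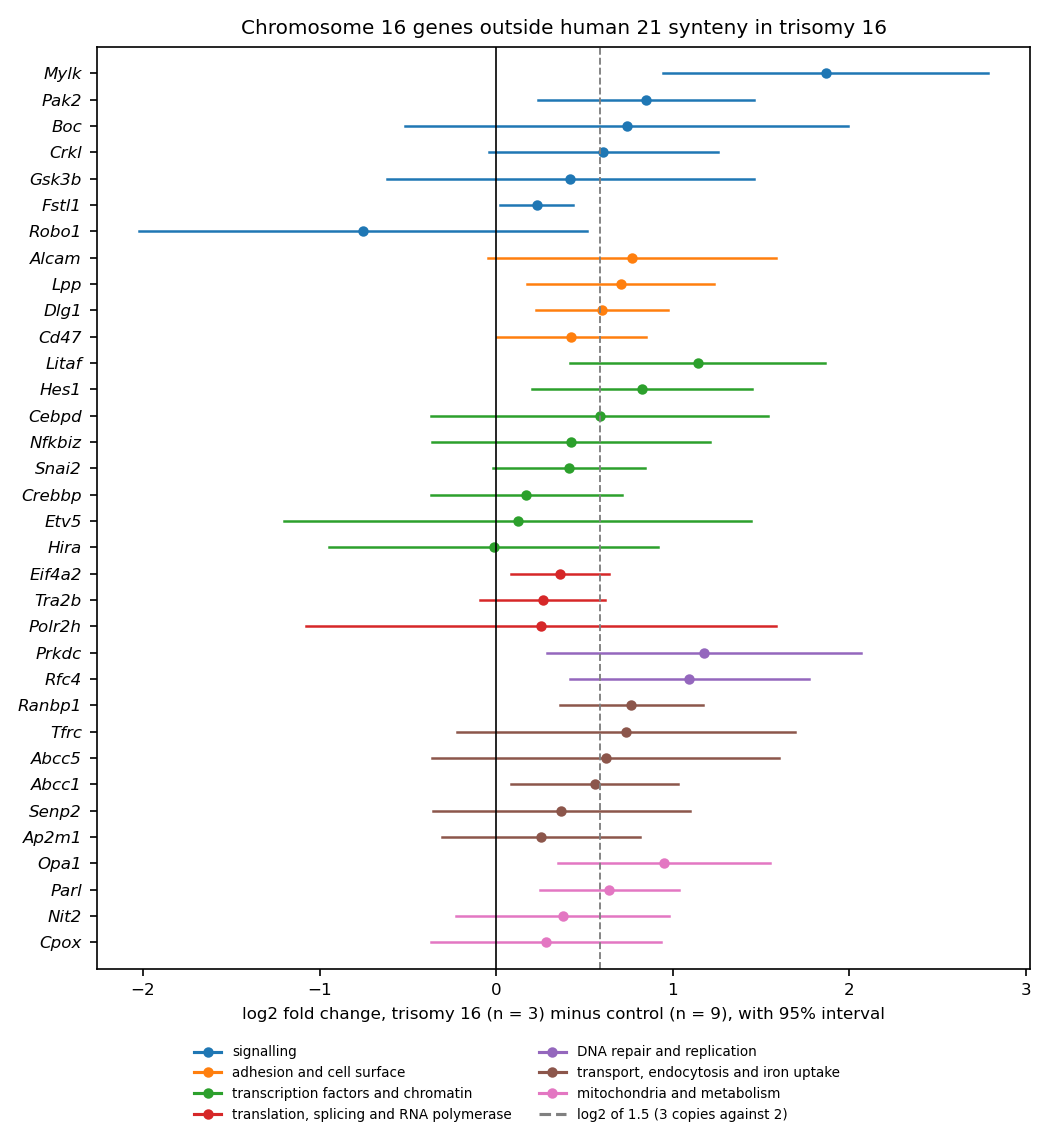
Log2 fold change of each of the 34 tested genes, trisomy 16 (n = 3) minus control (n = 9), with its 95% interval, coloured by role. The solid line is no difference and the dashed line the log2 of 1.5. Of the 34 points 19 lie within 0.25 of the dashed line, with Mylk highest at 1.86 and Robo1 lowest at -0.76.

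No single gene of the set passed limma's test, with Benjamini-Hochberg adjustment over the 7382 tested genes. Adjusted p ran from 0.14 to 0.99, and 0.0406% of all tested genes, 3 genes, passed in the higher direction. Before adjustment 15 of the 34 had a 95% interval above 0 and none had one below it. That background was 3.41% over all tested genes and 49.4% over chromosome 16. These 15 are Rfc4, Mylk, Dlg1, Eif4a2, Fstl1, Hes1, Cd47, Abcc1, Prkdc, Ranbp1, Lpp, Pak2, Parl, Litaf and Opa1. With the replicate number as a block 22 genes had such an interval, against 6.14% of all tested genes and 67.9% of chromosome 16 genes, and they held 13 of these 15, without Hes1 and Lpp. When p was adjusted over the 243 tested genes of chromosome 16 alone, 12 of the 34 passed, against 39.5% of that chromosome.

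Most intervals could not tell no change from a full dose response. The interval of 18 genes held both 0 and 0.58, which 48.6% of all tested genes and 46.1% of chromosome 16 genes also did. That of 13 excluded 0 and held 0.58, so 31 held 0.58, against 51.5% of all tested genes and 86.4% of chromosome 16 genes. Mylk lay above 0.58 and Fstl1 between 0 and 0.58, while the interval of Robo1 lay below 0.58 and held 0. Tested against 1.5-fold and adjusted over chromosome 16, 0 genes passed, and 3 had an unadjusted p under 0.05, against 13.6% of chromosome 16 genes.

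Each trisomy 16 line was next set against its paired control. In 29 of 34 genes the trisomy 16 line exceeded the control of the same replicate number in all 3 pairs, where 17.7% of all tested genes and 81.1% of chromosome 16 genes did. The medians of the 3 pairs were 0.50, 0.52 and 0.54 for the 34 genes, and 0.75, 0.63 and 0.59 over all tested chromosome 16 genes. Abcc5, Senp2, Polr2h and Etv5 were lower than the paired control in replicate 1, the 3'-biased array, and Hira was lower in replicate 3. Without the pair of replicate 1, 33 of 34 were higher in both remaining pairs, against 24.9% of all tested genes and 93.4% of chromosome 16 genes.

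**Figure D2:**
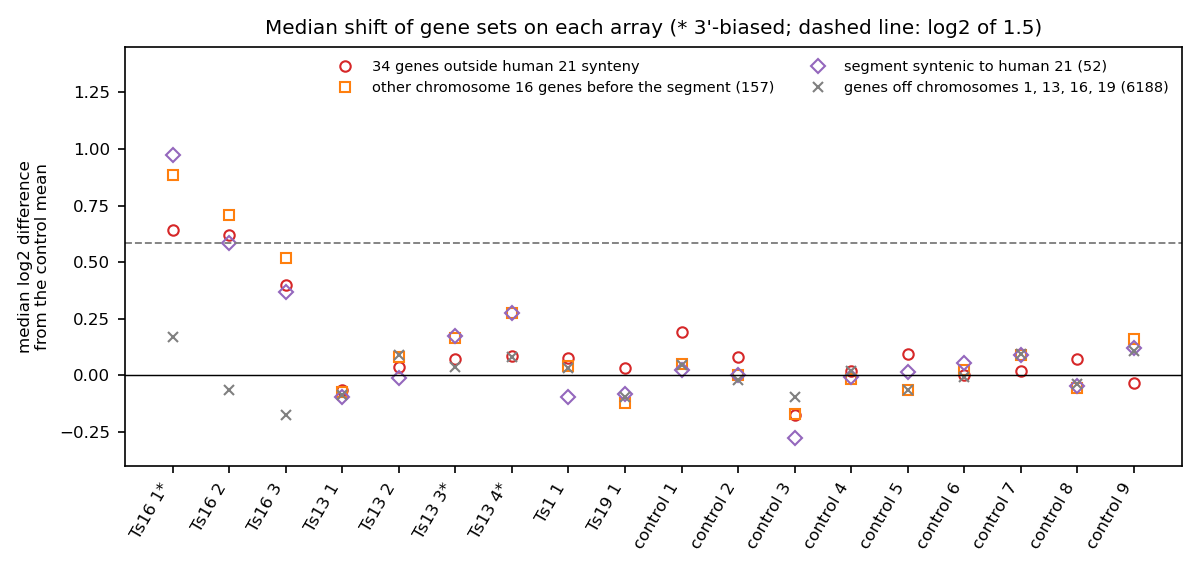
Median log2 difference from the control mean on each of the 18 arrays, for the 34 genes, the 157 other chromosome 16 genes ahead of the segment, the 52 genes of the segment and 6188 genes off chromosomes 1, 13, 16 and 19. The 34 genes stood at 0.64, 0.62 and 0.40 in the 3 trisomy 16 lines and between -0.17 and 0.19 in controls. The 6188 genes stood at 0.17, -0.07 and -0.17 in the same 3 trisomy 16 lines, so the arrays differed in their background.

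Only Hes1 and Eif4a2 had all 3 trisomy 16 arrays above all 9 controls, which 1.12% of all tested genes and 20.6% of chromosome 16 genes did. Leaving out control replicate 1, 2 or 9 gave 5, 6 and 4 such genes, and the count was 7, 5 and 11 without trisomy 16 replicate 1, 2 or 3. In these 6 fits 1.4% to 4.89% of all tested genes and 23.5% to 44% of chromosome 16 genes were so placed. Hes1 encodes a repressor that Notch signalling induces. Its log2 level was 10.02, 9.98 and 10.26 in the 3 trisomy 16 lines, against a lowest of 8.30, a median of 9.31 and a highest of 9.75 in the 9 controls. The 3 highest controls were the 3 of first numbers 89 and 92, and the trisomy 19 line, at 10.08, overlapped the trisomy 16 lines. The difference in Hes1 was 0.82 ± 0.29 (SE, adjusted p = 0.49 in limma), or 1.77-fold, and 0.39 on average over the pairs.

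Eif4a2 encodes an RNA helicase of the cap-binding complex that starts translation. It had log2 levels of 13.68, 13.61 and 13.47 in trisomy 16, against 13.00 to 13.46 in controls, with a control median of 13.21. The lowest trisomy 16 line and the highest control were nearly level. Its difference was 0.36 ± 0.13 (SE, adjusted p = 0.52 in limma), a 1.28-fold difference, and its interval from 0.08 to 0.64 held 0.58.

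Among signalling genes, 6 of 7 tested exceeded their control mean, and the median was 0.61. Mylk, which encodes myosin light chain kinase and was singled out after its values were seen, had the highest estimate. Its log2 levels were 11.99, 12.45 and 11.03 in trisomy 16, against 9.01, 9.97 and 11.43 as the lowest, median and highest control. Of the controls, replicate 2 was above the lowest trisomy 16 line, so the groups overlapped. The difference was 1.86 ± 0.43 (SE, adjusted p = 0.14 in limma), or 3.64-fold, and the pairs gave 1.68, 1.02 and 2.01. A second probe set of Mylk was higher by 1.23. Mylk is strongly expressed in smooth muscle, and the mean log2 level of 8 smooth muscle markers was 9.98 to 10.75 in trisomy 16 and 9.71 to 11.37 in controls.

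Fstl1, which encodes a secreted follistatin-like protein, had the highest level of the set. It stood at 15.61, 15.61 and 15.37 in trisomy 16, against 14.996, 15.34 and 15.50 as the lowest, median and highest control. The groups overlapped, with trisomy 16 replicate 3 among the controls. Its difference was 0.23 ± 0.10 (SE, adjusted p = 0.66 in limma), with an interval from 0.02 to 0.44, and a second probe set of it was higher by 0.51. The pairs gave 0.47, 0.30 and 0.38 for Fstl1.

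Robo1, a receptor for Slit guidance cues, was the lowest estimate of the set and depended on which controls it was set against. Its log2 levels were 9.93, 8.57 and 8.14 in trisomy 16, against 8.04, 10.16 and 11.18 as the lowest, median and highest control. The 3 controls of first numbers 89 and 92 stood at 8.79, 8.21 and 8.04, and the other 6 between 9.38 and 11.18. The difference from all controls was -0.76 ± 0.60 (SE, adjusted p = 0.79 in limma), while the pairs gave 1.14, 0.36 and 0.09. In the fit blocked on replicate number it was 0.53 (adjusted p = 0.60). All 3 trisomy 16 lines thus lay above their own control and 2 of 3 below each of the 6 other controls.

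The remaining signalling genes overlapped their controls. Pak2, a kinase that acts downstream of Rac and Cdc42, was higher by 0.85 ± 0.29 (adjusted p = 0.45). Boc, a co-receptor for hedgehog ligands, was higher by 0.74 ± 0.59 and Crkl, an adaptor that binds phosphorylated scaffold proteins, by 0.61 ± 0.31. Gsk3b had an estimate of 0.42 ± 0.49. Each of these 4 was above its paired control in all 3 pairs.

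**Figure D3:**
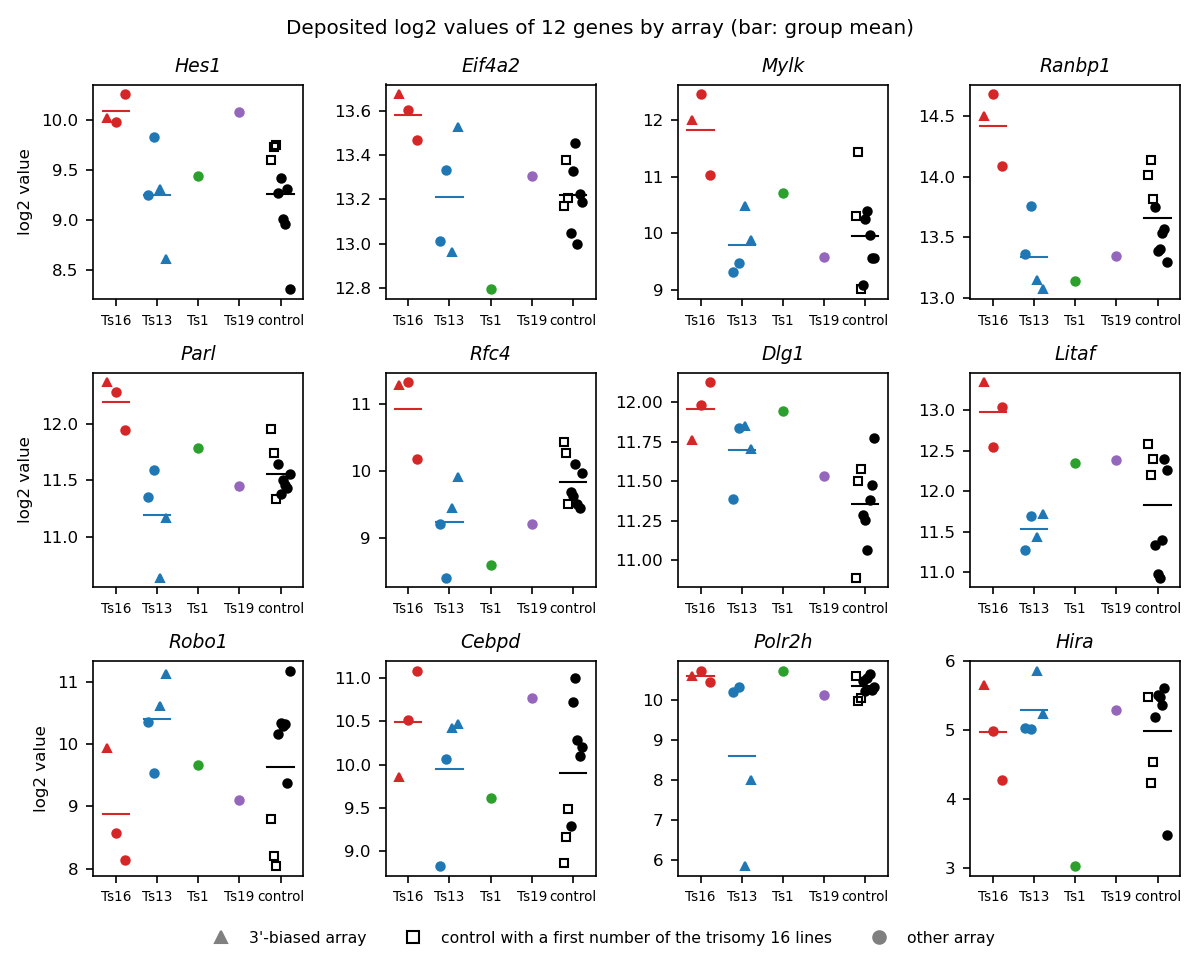
Deposited log2 values of 12 genes on each of the 18 arrays, with Ts16, Ts13, Ts1 and Ts19 for the trisomies and bars for group means. Triangles mark 3'-biased arrays and open squares the controls of first numbers 89 and 92. The 3 trisomy 16 values of Hes1 and Eif4a2 lie above all controls, and those of Robo1 lie above the open squares of the same replicate number.

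The 4 genes of adhesion and the cell surface were all above the control mean, by a median of 0.65. Alcam, a cell adhesion molecule of the immunoglobulin family, differed by 0.77 ± 0.38, and Lpp, a focal adhesion protein, by 0.70 ± 0.25. Dlg1, a scaffold of cell junctions, differed by 0.60 ± 0.18, and Cd47, a surface signal against phagocytosis, by 0.42 ± 0.20. Dlg1 was singled out after its values were seen. It stood at 11.76, 11.98 and 12.12 in trisomy 16, against 10.89, 11.38 and 11.77 as the lowest, median and highest control. Control replicate 9 was level with the lowest trisomy 16 line. All 4 genes were above their paired controls in 3 of 3 pairs, Lpp by 0.12, 0.11 and 0.15. Blocked on replicate number Lpp had 0.13 (adjusted p = 0.61), with an interval that held 0.

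Of 8 genes for transcription factors and chromatin, 7 exceeded their control mean, and the median was 0.42. Litaf, an endosomal protein named for a role in TNF transcription, was higher by 1.14 ± 0.34 (adjusted p = 0.30). Its log2 levels, chosen after they were seen, were 13.34, 12.55 and 13.04 in trisomy 16, against 10.94, 12.20 and 12.59 as the lowest, median and highest control. The overlap came from control replicate 1, at 12.59. Cebpd, a factor of the inflammatory and adipocyte programmes, had 9.85, 10.52 and 11.08 in trisomy 16, against 8.87, 10.10 and 11.00 as the lowest, median and highest control. It lay above its paired controls by 0.99, 1.36 and 1.60, but by only 0.22 above the mean of the 6 other controls.

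Snai2, a repressor of epithelial genes, had an estimate of 0.41 ± 0.20, and Nfkbiz, a nuclear regulator of NF-kappaB targets, 0.42 ± 0.37. Crebbp stood at 8.42, 8.09 and 8.03 in trisomy 16, against 7.53, 7.94 and 8.52 as the lowest, median and highest control. The groups overlapped throughout, and the estimate was 0.17 ± 0.26. Etv5, a factor induced by fibroblast growth factor signalling, stood at 4.94, 6.14 and 6.61 in trisomy 16, against 5.25, 5.92 and 6.24 as the lowest, median and highest control. The 3'-biased line was the lowest of these 12 cultures, and the estimate was 0.12 ± 0.62.

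Hira, a chaperone that deposits histone H3.3, was the other gene not above the control mean. Its log2 levels were low, at 5.65, 4.98 and 4.28 in trisomy 16, against 3.48, 5.36 and 5.61 as the lowest, median and highest control. The groups overlapped, and the difference was -0.01 ± 0.44 (SE, adjusted p = 0.99 in limma), with an interval from -0.95 to 0.92. A second Hira probe set, with a mean of 4.44, was higher by 0.72, so the sign depends on the probe set. Mrpl40, a mitochondrial ribosomal protein gene whose RefSeq start window overlaps that of Hira on the other strand by 212 bases, is set beside it. Mrpl40 had 11.06, 11.44 and 11.15 in trisomy 16, against 9.29, 9.62 and 10.64 as the lowest, median and highest control, which did not overlap. Mrpl40 was higher by 1.36 ± 0.27 (SE, adjusted p = 0.089 in limma). Its paired controls were its highest controls, at 10.64, 10.44 and 10.29, and the other controls lay between 9.29 and 9.78. Mrpl40 was above its paired control in 3 of 3 pairs, but by less than 1.36 in each. Whether the 2 genes differed in their response was not tested.

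The 3 genes of translation, splicing and RNA polymerase had the lowest group median, 0.26. Tra2b, a splicing regulator, stood at 13.82, 13.89 and 13.40 in trisomy 16, against 13.19, 13.34 and 13.73 as the lowest, median and highest control. Trisomy 16 replicate 3 lay inside the control range, and the difference was 0.26 ± 0.17 (adjusted p = 0.77). Polr2h, a subunit shared by the 3 nuclear RNA polymerases, stood at 10.60, 10.72 and 10.45 in trisomy 16, against 9.97, 10.32 and 10.63 as the lowest, median and highest control. The difference was 0.25 ± 0.63, with an interval from -1.07 to 1.58. The SD of Polr2h was 0.13 in trisomy 16 and 2.11 in trisomy 13, against 0.24 in controls, and all groups share 1 estimate of the spread.

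Both measured DNA repair and replication genes had estimates above 1 on the log2 scale. Prkdc, the catalytic subunit of the DNA-dependent protein kinase of end joining, was higher by 1.18 ± 0.42 (adjusted p = 0.50), with 9.34 on the 3'-biased array and 8.21 and 7.63 on the other 2 trisomy 16 arrays, against 6.64, 7.25 and 8.06 as the lowest, median and highest control. Replicate 3 of trisomy 16 lay inside the control range. Rfc4 was higher by 1.09 ± 0.32 (adjusted p = 0.30). Its log2 levels were 11.29, 11.33 and 10.18 in trisomy 16, against 9.45, 9.69 and 10.44 as the lowest, median and highest control. Replicate 3 of trisomy 16 lay inside the control range. Rfc4 is given per array because it was singled out after its values were seen. A second probe set of Rfc4 was higher by 0.68. Without the 3'-biased arrays the estimates were 0.70 for Prkdc and 0.91 for Rfc4, and the means over the pairs were 1.34 and 0.86.

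All 6 genes of transport, endocytosis and iron uptake were above the control mean, by a median of 0.59. Ranbp1, a cofactor of the Ran cycle of nuclear transport, was the most precisely measured of them and was chosen for per-array values after they were seen. It stood at 14.50, 14.68 and 14.09 in trisomy 16, against 13.30, 13.57 and 14.14 as the lowest, median and highest control. Control replicate 2 lay just above trisomy 16 replicate 3. The difference was 0.76 ± 0.19 (SE, adjusted p = 0.17 in limma), or 1.70-fold, and 0.43 over the pairs. Trmt2a, a tRNA methyltransferase gene whose start window overlaps that of Ranbp1 on the other strand by 288 bases, was higher by 0.99 ± 0.26 (adjusted p = 0.18).

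Tfrc, the transferrin receptor, differed by 0.73 ± 0.45, and the drug exporters Abcc5 and Abcc1 by 0.62 ± 0.46 and 0.56 ± 0.22. Senp2, a SUMO protease, differed by 0.37 ± 0.34. Ap2m1 stood at 12.07, 12.67 and 12.95 in trisomy 16, against 11.70, 12.44 and 12.67 as the lowest, median and highest control. The groups overlapped, the estimate was 0.25 ± 0.26, and the 3'-biased line was again the lowest of the 3. Abcc5 and Senp2 were likewise lowest on that array, with differences of -1.48 and -1.02 from the mean of the other 2 trisomy 16 lines, and for Tfrc this difference was 1.53.

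The 4 genes of mitochondria and metabolism were all above the control mean, by a median of 0.51, and each was so in 3 of 3 pairs. Opa1, which fuses the inner mitochondrial membrane, was higher by 0.95 ± 0.28 (adjusted p = 0.30). It stood at 10.62 on the 3'-biased array and at 9.77 and 9.20 on the other trisomy 16 arrays, against 8.32 to 9.43 in controls. Without the 3'-biased arrays the estimate of Opa1 was 0.57. Parl, the rhomboid protease of the inner mitochondrial membrane, was singled out after its values were seen. It stood at 12.36, 12.28 and 11.94 in trisomy 16, against 11.34, 11.50 and 11.95 as the lowest, median and highest control. Trisomy 16 replicate 3 was level with control replicate 1, and the difference was 0.64 ± 0.19 (adjusted p = 0.30). Nit2, an amidase, and Cpox, an enzyme of haem synthesis, had estimates of 0.38 ± 0.28 and 0.28 ± 0.31.

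The choice of controls moved single genes more than it moved the set. Against the 3 controls of first numbers 89 and 92 the trisomy 16 mean was higher for 34 of 34 genes, with a median of 0.49, where 47.5% of all tested genes and 94.7% of chromosome 16 genes were higher. Against the 6 other controls 31 of 34 were higher, with a median of 0.44, where 43.6% of all tested genes and 86% of chromosome 16 genes were. The medians over all tested chromosome 16 genes were 0.66 and 0.59 against these 2 sets of controls. The 2 sets of controls differed by more than 0.5 for 9 of the 34 genes, against 29.2% of all tested genes. Lpp, Litaf, Tfrc, Hes1 and Pak2 were higher in controls of first numbers 89 and 92, by 0.86, 0.84, 0.71, 0.65 and 0.52. Cebpd, Boc, Cpox and Robo1 were lower in them, with differences of -1.10, -0.88, -0.86 and -1.93. All 3 trisomy 16 arrays exceeded all 3 of these controls for 11 genes, Alcam, Boc, Cebpd, Crebbp, Dlg1, Eif4a2, Fstl1, Hes1, Prkdc, Snai2 and Nit2, where 4.08% of all tested genes and 38.7% of chromosome 16 genes did.

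**Figure D4:**
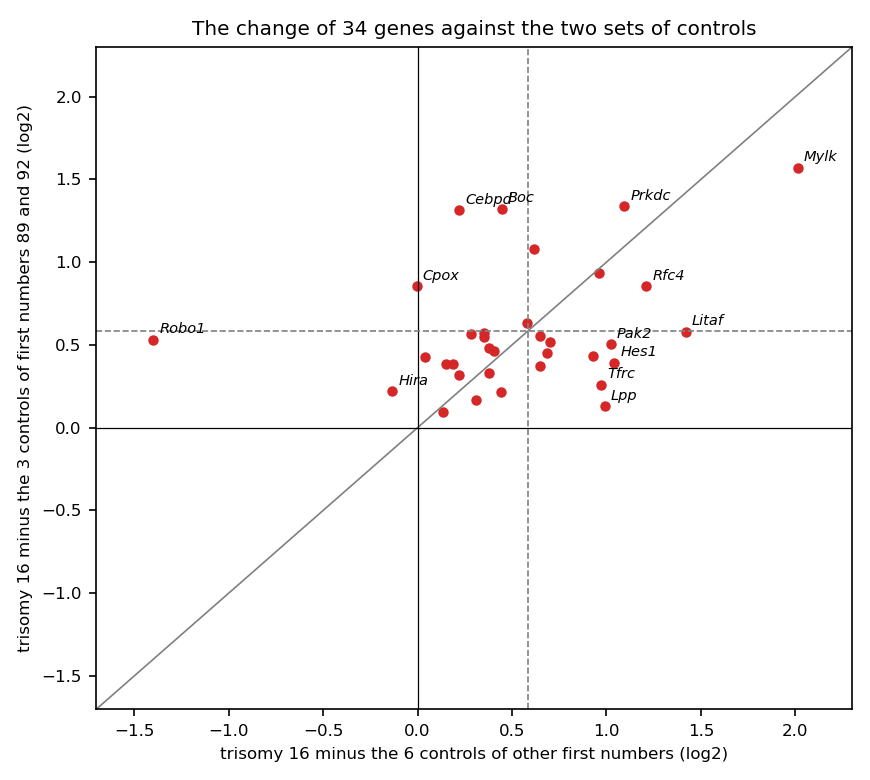
Trisomy 16 mean minus the mean of the 3 controls of first numbers 89 and 92 (vertical, log2) against trisomy 16 mean minus the mean of the 6 other controls (horizontal, log2), 1 point per gene. Both axes share the trisomy 16 arrays, the diagonal marks equal differences and the dashed lines the log2 of 1.5. Every point lies above 0 on the vertical axis, and Robo1 stands at -1.40 on the horizontal one.

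Single genes differed between the 3'-biased arrays and the others. Trisomy 16 replicate 1 minus the mean of replicates 2 and 3 ran from -1.48 for Abcc5 to 1.57 for Robo1. The corresponding difference within trisomy 13, replicates 3 and 4 minus replicates 1 and 2, had the same sign for 27 of the 34 genes, against 81% of all tested genes and 81.5% of chromosome 16 genes. Prkdc gave 1.42 in trisomy 16 and 1.44 in trisomy 13, Boc 1.22 and 2.13, and Nfkbiz 1.05 and 1.60. Etv5 gave -1.43 and -3.24, Gsk3b -1.01 and -2.12, and Abcc5 -1.48 and -1.95. Without the 3'-biased arrays the median of the 34 genes in trisomy 16 was 0.53, with 14 intervals above 0, where 2.76% of all tested genes and 41.2% of chromosome 16 genes had one. Both remaining arrays lay above all controls for 7 genes, Ap2m1, Crkl, Dlg1, Eif4a2, Hes1, Abcc5 and Gsk3b, against 1.9% of all tested genes and 29.6% of chromosome 16 genes. The part of RNA quality in the single-gene values was not tested further.

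**Figure D5:**
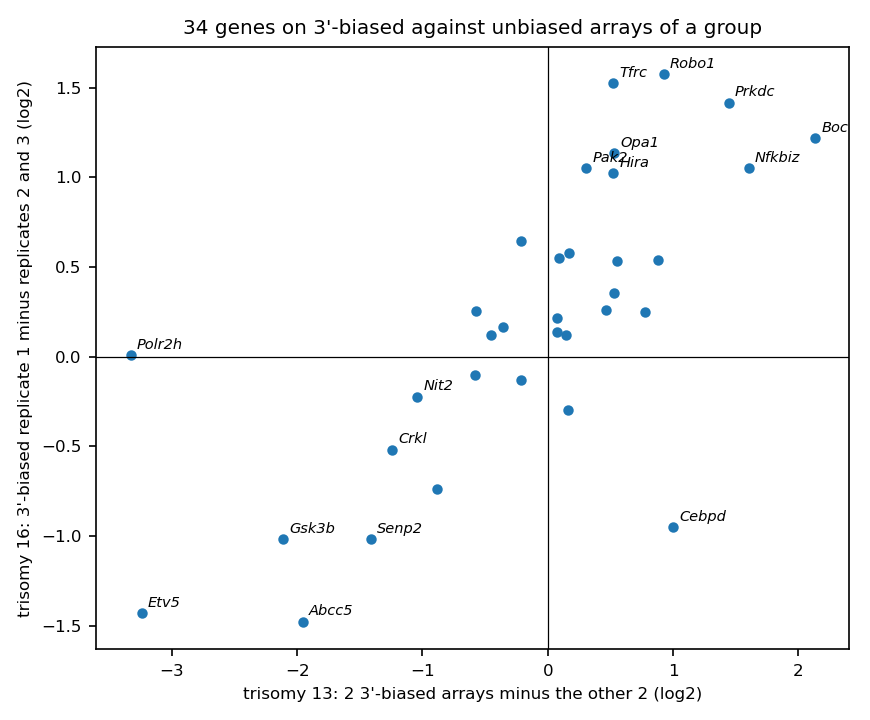
Trisomy 16 replicate 1, which is 3'-biased, minus the mean of replicates 2 and 3 (vertical, log2) against the mean of the 2 3'-biased trisomy 13 arrays minus the mean of the other 2 (horizontal, log2), 1 point per gene for 34 genes. The 2 differences share no array, and 27 points lie where the signs are equal.

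In lines with 2 copies of chromosome 16 the genes stayed near the controls as a set. The median log2 difference was 0.00 in trisomy 13, 0.08 in trisomy 1 and 0.03 in trisomy 19, with 17, 19 and 19 of 34 genes above the control mean. Over all tested genes 51.2%, 55.3% and 38.8% were above it in these 3 groups, and over chromosome 16 genes 55.6% were in trisomy 13. These comparisons and that of trisomy 16 share the 9 controls. No gene passed limma's adjusted test in trisomy 13, where 1.76% of all tested genes did, in trisomy 1, where 0.0406% did, or in trisomy 19, where 0% did. At an unadjusted p under 0.05, 2 genes were higher and 6 lower in trisomy 13, against 9.88% and 12% of all tested genes. Of chromosome 16 genes 9.05% were higher and 11.9% lower at that p. Alcam and Dlg1 were the 2 higher genes, at 0.85 and 0.34. The 6 lower were Polr2h, Etv5, Senp2, Crkl, Tra2b and Parl, with estimates of -1.75, -1.37, -0.84, -0.82, -0.57 and -0.37.

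Within trisomy 13 several of these genes split by array. Polr2h had 10.19 and 10.31 on the unbiased arrays and 5.86 and 7.98 on the 3'-biased ones, and Etv5 had 5.94 and 6.11 on the unbiased arrays and 2.85 and 2.72 on the 3'-biased ones. On the 2 unbiased arrays both genes lay inside the control range, and on the 3'-biased arrays below it. Tra2b had 13.09, 13.00, 12.42 and 12.96 in trisomy 13, all below the lowest control at 13.19, which held for 1.00% of all tested genes. The difference of Tra2b in trisomy 13 was -0.57 ± 0.15 (SE, adjusted p = 0.065 in limma). Without trisomy 13 replicate 1, Tra2b and Polr2h passed the adjusted test, and without replicate 2 Etv5, Crkl, Tra2b and Polr2h did. Of all tested genes 4.2% and 9.94% passed in these fits, and of chromosome 16 genes 4.53% and 7.82%. Replicates 1 and 2 are the unbiased arrays, so the 3'-biased arrays weighed more in both fits.

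In the trisomy 1 line 3 genes were lower at an unadjusted p under 0.05, against 2.64% of all tested genes. These were Hira at -1.95 ± 0.70, Rfc4 at -1.24 ± 0.51 and Snai2 at -0.74 ± 0.32, each from 1 array assumed to vary like the other groups. Hira stood at 3.03 in trisomy 1, near the 3.48 of control replicate 9, which carries the same first number. In the trisomy 19 line no gene had an unadjusted p under 0.05, against 1.07% of all tested genes higher and 0.894% lower.

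Set against trisomy 13, where chromosome 16 has 2 copies, 6 of 34 genes were higher in trisomy 16 with an adjusted p under 0.05 in limma, against 1.1% of all tested genes and 13.6% of chromosome 16 genes. None was lower at that threshold, where 1.33% of all tested genes were. At an unadjusted p under 0.05 there were 15 higher and 1 lower, Robo1, against 7.67% and 10.1% of all tested genes. Of chromosome 16 genes 38.7% were higher and 1.65% lower in that comparison. Mylk differed by 2.03 ± 0.50 (adjusted p = 0.041), Rfc4 by 1.69 ± 0.37 (adjusted p = 0.024) and Crkl by 1.43 ± 0.35 (adjusted p = 0.042). Ranbp1 differed by 1.09 ± 0.22 (adjusted p = 0.018), Parl by 1.01 ± 0.21 (adjusted p = 0.022) and Tra2b by 0.83 ± 0.19 (adjusted p = 0.032). For each of the 6, trisomy 13 lay below and trisomy 16 above the control mean. Without the 3'-biased arrays 0 of the 34 passed, where 0.135% of all tested genes and 1.23% of chromosome 16 genes did. The differences for these 6 genes were then 2.34, 1.95, 0.98, 0.82, 0.64 and 0.60 in the same order. When the first number entered as a block 0 passed, where 0.0135% of all tested genes did. With the 3' minus 5' Gapdh difference as a covariate 8 passed, against 2.66% of all tested genes and 28.8% of chromosome 16 genes, the same 6 with Litaf at 1.49 (adjusted p = 0.037) and Senp2 at 1.01 (adjusted p = 0.019). Leaving out trisomy 16 replicate 2 left 0, and leaving out trisomy 13 replicate 4 left Rfc4 alone. Of all tested genes 0.217% and 0.461% were higher in these fits, and of chromosome 16 genes 2.47% and 7.82%.

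Partner genes on other chromosomes were set beside the members. Of 128 listed subunits, interactors and pathway genes, 104 off chromosome 16 were tested in trisomy 16, 0 passed limma's adjusted test, and their median was -0.09, beside -0.05 over all tested genes. At an unadjusted p under 0.05, 1 was higher and 5 were lower, against 3.41% and 3.58% of all tested genes. The higher one was Rac1, a small GTPase that activates Pak kinases, at 0.31. The lower ones were the iron exporter Slc40a1 at -3.03, the guanine exchange factor Rapgef1 at -0.77, the mitofusin Mfn1 at -0.67, the iron transporter Slc11a2 at -0.66 and Gsk3a at -0.40. Slc40a1 had an SE of 0.93 (adjusted p = 0.35 in limma) and was above its paired control in 1 of 3 pairs, the others in 0. The mitochondrial fission gene Dnm1l, which lies on chromosome 16 itself, had 0.50 ± 0.20 and was above its paired control in 3 of 3 pairs.

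By list, the medians in trisomy 16 were -0.06 over 15 Wnt pathway genes, -0.09 over 11 translation initiation genes, -0.27 over 7 coactivators and -0.18 over 9 RNA polymerase II subunits. AP2 and clathrin genes had the lowest, -0.72 over 8 genes, with Ap2a1 at -1.25 ± 0.82, Ap2b1 at -1.17 ± 0.91 and Ap2s1 at -0.88 ± 0.74. The medians of that list on the 3 trisomy 16 arrays were -1.61, -0.21 and 0.21, lowest on the 3'-biased one. The clamp loader and end joining list had 0.30 over 9 genes, of which 8 were above the control mean, led by Rfc5 at 0.44 ± 0.37, and its medians on the 3 trisomy 16 arrays were 0.80, 0.54 and -0.77. That list had medians of -0.33, -0.80 and -0.53 in trisomies 13, 1 and 19. Over the pairs the median was 0.11 for that list, with 2 of 9 genes above their control in all 3 pairs, and -0.68 for the AP2 and clathrin list. The 4 HIRA pathway genes were spread on both sides of 0, with Asf1b at 0.94 ± 0.49, Asf1a at 0.51 ± 0.31, Daxx at 0.09 ± 0.49 and Atrx at -0.69 ± 0.71. Their median was 0.30 against all controls and 0.00076 over the pairs, and 0 of 4 were above their control in all 3 pairs. Mitochondrial dynamics genes had -0.20 over 9, haem and iron genes -0.10 over 11, Ran and SUMO genes 0.02 over 9, and Crk, Pak and focal adhesion genes -0.26 over 12.

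Closest paralogues on other chromosomes were compared in 12 of 23 listed pairs, those with both genes tested. The chromosome 16 gene had the higher estimate in 11 of the 12, and 3 of the 12 paralogue estimates were above the control mean, none past the adjusted test. Above the control mean were 88.5% of all tested chromosome 16 genes and 44.2% of all tested genes, so the count of pairs is not particular to paralogues. Lpp enters the count with both Trip6 and Zyx. Gsk3b had 0.42 and Gsk3a -0.40, Eif4a2 had 0.36 and Eif4a1 -0.15, and Tra2b had 0.26 and Tra2a -0.31. Cebpd had 0.59 and Cebpb -0.27, Etv5 had 0.12 and Etv4 -1.47, and Nit2 had 0.38 and Nit1 -0.52. Lpp had 0.70, with 0.13 as the mean over its pairs, and Trip6 had -0.36 and Zyx -0.48, both focal adhesion proteins of its family. Crkl stood at 0.61 and Crk at 0.19, Dlg1 at 0.60 and Dlg3 at -0.03, and Prkdc at 1.18 and the related kinase Atm at 0.49. The exception was Snai2, at 0.41 against 1.13 ± 0.57 for Snai1. Snai1 stood at 8.53, 8.91 and 9.99 in trisomy 16, against 6.96, 7.68 and 9.92 as the lowest, median and highest control, and its 3 highest controls were those of first numbers 89 and 92.

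Other probe sets of the same genes mostly gave the same sign. Of the 34 genes, 18 had at least 2 probe sets with a mean log2 value of 4 or more, and for 16 of these all such probe sets had the same sign in trisomy 16. The exceptions were Hira, above, and Abcc1, whose second probe set had a difference of -0.44. The weaker probe sets of Tfrc were higher by 1.40 and 1.94, beyond the 0.73 of the set used.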

How the data were processed

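The values are the authors' deposited log2 expression values, 1 array per sample; affy and GCRMA are named in the submitters' processing notes, with versions not given in the sources used here. Probe sets were named from the platform annotation: of 22690, 20393 had 1 gene, 691 several and 1606 no entry. Each gene kept the probe set with the highest mean, and genes with a mean of at least 4 were tested. Groups came from the sample labels. limma 3.58.1 in R 4.3.3 (lmFit, eBayes with a trend) fitted all 18 arrays in 5 groups with 13 residual degrees of freedom, with Benjamini-Hochberg adjustment over 7382 genes and a threshold of 0.05. Intervals are at 95%. The code was tested on simulated data. Figures used matplotlib 3.10.9.

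The members and lists were chosen with earlier results of these data known, as was the limit of 3 on the Gapdh difference. Per-array values are given for genes with all 3 trisomy 16 arrays above all controls and for the 8 lowest estimates; other genes shown so were chosen after their values were seen. For each partner list, up to 3 genes by p could be named. Trisomy 16 and control replicates 1 to 3 were taken as pairs from the numbers in the titles, since every correlation was over 0.1. Alternatives changed the filter, probe set rule, scaling, blocks, controls, 3'-biased arrays and single replicates. The number of arrays limits precision.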

Additional observations from a re-analysis of the deposited data

Results flagged for a closer look

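For 6 genes trisomy 16 and trisomy 13 differed in a direct test (limma, adjusted p under 0.05), which flagged them. The log2 differences, trisomy 16 minus trisomy 13, were 2.03 for Mylk (adjusted p = 0.041), 1.69 for Rfc4 (adjusted p = 0.024) and 1.43 for Crkl (adjusted p = 0.042). They were 1.09 for Ranbp1 (adjusted p = 0.018), 1.01 for Parl (adjusted p = 0.022) and 0.83 for Tra2b (adjusted p = 0.032). Trisomy 16 exceeded trisomy 13 in all 6, and 1.1% of all tested genes and 13.6% of chromosome 16 genes were higher at the same threshold. The count was 0 with the first number as a block, 0 without the 3'-biased arrays and 0 without trisomy 16 replicate 2. In these fits 0.0135%, 0.135% and 0.217% of all tested genes were higher, and 0%, 1.23% and 2.47% of chromosome 16 genes. With the 3' minus 5' difference as a covariate the count was 8, where 2.66% and 28.8% were higher. Among 70 sets of values of 1 gene in the 4 trisomy 13 or 9 control arrays, 0 held an array far from the others by Dixon's criterion. That criterion looks for a single array apart from the rest, and arrays that deviate together can escape it. Etv5 and Polr2h, low on both 3'-biased trisomy 13 arrays, were not flagged. The trisomy 16 arrays were not looked at in this way.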

How the results depend on the processing

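Of 916 single-gene values for trisomy 16 under the alternatives, 899 kept their direction and 17 changed sign. No gene was past the adjusted threshold in any of these fits, with a lowest adjusted p of 0.054 in limma. Changing the filter, dropping the trend or leaving out a trisomy 13 replicate cannot alter these estimates. The count is therefore no measure of stability. Hira was 0.26 with the mean of all probe sets, 0.15 with quantile normalization, 0.25 with arrays centred on other chromosomes, 0.22 with either block or only controls of first numbers 89 and 92, and -0.36 to 0.33 with single replicates left out. Robo1 was 0.53 with either block or only those controls, and Etv5 ran from -0.24 to 0.60 with single replicates left out. The cause was not tested. With the replicate number as a block the lowest adjusted p was 0.19, so the pairing changed no adjusted call, and 22 intervals lay above 0 (67.9% of chromosome 16 and 6.14% of all tested genes), without those of Hes1 and Lpp. With only controls of first numbers 89 and 92, 8 did (28.8% and 2%). Adjusted over chromosome 16, 12 genes passed. Away from 1.5-fold, 3 genes passed with no filter, Mylk, Fstl1 and Dvl3, which lay under the filter on every array, so its value says nothing of dose. The count higher than trisomy 13 was 3 with no filter (6.04% of chromosome 16 and 0.468% of all tested genes). It was 3 with the mean of probe sets (12.8% and 1.21%) and 2 with only those controls (4.53% and 0.366%). With the first number as a block it was 0 (0% and 0.0135%), and without the 3'-biased arrays 0 (1.23% and 0.135%). With single replicates left out it ran from 0 to 6 (2.47% to 15.6% and 0.217% to 1.73%). In trisomy 13, 1 gene passed with quantile normalization (Tra2b, beside 0.826% and 2.03%). With replicates left out 0 to 4 passed (0% to 7.82% and 0.352% to 9.94%). The count above all controls was 5 with quantile normalization (26.4% of chromosome 16 and 1.37% of all tested genes), 12 when centred (39.9% and 3.16%), 11 with only those controls (38.7% and 4.08%), 7 without the 3'-biased arrays (29.6% and 1.9%), and 2 to 11 with replicates left out (20.6% to 44% and 1.12% to 4.89%). Centring moved the median of the set to 0.84 and that of all genes to 0.22. It shifts all genes of an array equally, so the gap of 0.62 as deposited could not change. With quantile normalization these medians were 0.58 and -0.01, a gap of 0.59.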
